A study of Mus musculus with 8 samples.

Results

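The genes described here are 9 C-type lectin receptors of myeloid cells (Clec7a, Clec4n, Clec4d, Clec4e, Clec5a, Clec4a2, Clec12a, Clec4a1 and Clec4a3) together with Card9, the adaptor through which several of them signal. They were chosen by symbol and matched to mouse Ensembl identifiers, and all 10 were found among the 41388 identifiers of the count files. Enough counts for a test were present for 12002 genes, among them 8 of the 10. Clec4d and Clec4n fell below the count minimum and are given as counts.

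Microglia, the resident macrophages of brain and spinal cord, had been isolated ex vivo with the surface markers CD11c, CD11b and CD45 from adult C57BL/6 mice. The libraries formed 3 groups. These were the CD11c+ microglia of mice with neuromyelitis optica (NMO, n = 2), their CD11c- counterparts (n = 3) and microglia of unmanipulated control mice (n = 3). NMO is an inflammatory demyelinating disease of the central nervous system, and the sources used here do not say how it was induced. The control libraries carry a CD11c-negative label and a title that calls them total microglia, so whether CD11c+ cells were taken out of them is not known. The labels name no batch and do not say that each library is a separate mouse. The p-values therefore measure the spread between these libraries, and any difference in handling between NMO and control libraries cannot be told apart from disease.

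The libraries held 4943207 to 9246061 gene counts each, with the smallest totals in the CD11c+ group. Values below are CPM, counts relative to the scaled library total. Itgax, which encodes CD11c, was at 188 and 181 CPM in the CD11c+ libraries, at 35.5, 41.3 and 40.0 CPM in the CD11c- NMO libraries and at 30.6, 32.1 and 31.0 CPM in the controls. Ptprc, which encodes CD45, and Itgam, which encodes CD11b, passed the test in 0 of the 3 comparisons. Ptprc was still higher in all NMO libraries than in all controls. Its log2 fold change was 0.37 in CD11c+ NMO and 0.34 in CD11c- NMO cells (adjusted p = 0.138 and 0.212 by edgeR). CD11c+ replicate 1 stood apart in its relation to gene GC content, with a Spearman correlation over genes of 0.592 against -0.299 to -0.0378 in the other libraries. Calls that involve the CD11c+ group are therefore followed by what was found without it. All 12 genes of the microglia marker list were detected in each group, with summed levels of 39326 to 40210 CPM in CD11c+ libraries, 38985 to 47007 CPM in CD11c- NMO libraries and 46048 to 50876 CPM in controls.

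C-type lectin receptors of the myeloid lineage bind sugars, lipids and other ligands of microbes and damaged cells. Dectin-1, the product of Clec7a, carries its own signalling motif, whereas dectin-2 (Clec4n), MCL (Clec4d) and Mincle (Clec4e) signal through the Fc receptor gamma chain (Fcer1g) and MDL-1 (Clec5a) through the adaptor DAP12 (Tyrobp). Those routes meet at the kinase Syk, which leads to NF-kB through the complex of Card9, Bcl10 and Malt1. Clec4a2 (DCIR) and Clec12a (MICL) instead carry inhibitory motifs that recruit phosphatases. Clec7a is widely used as a marker of activated microglia. In bulk RNA, fewer cells of a type and less RNA per cell cannot be told apart.

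The 9 receptor genes lie on chromosome 6 and Card9 on chromosome 2. To show the sequence next to the start of the 2 receptors called in a comparison (Clec7a and Clec5a) and of 2 with wide count differences between the groups (Clec12a and Clec4e), the 250 bases upstream of the first RefSeq start (GRCm38.p6) are printed 5′ to 3′ on the gene's own strand for Clec7a (chr6:129472786-129473035, minus strand), Clec5a (chr6:40585806-40586055, minus strand), Clec12a (chr6:129349994-129350243, plus strand) and Clec4e (chr6:123289872-123290121, minus strand). Capitals mark the letters GAGGAA, the core of a binding box for the myeloid factor PU.1, or their reverse complement TTCCTC.
Clec7a: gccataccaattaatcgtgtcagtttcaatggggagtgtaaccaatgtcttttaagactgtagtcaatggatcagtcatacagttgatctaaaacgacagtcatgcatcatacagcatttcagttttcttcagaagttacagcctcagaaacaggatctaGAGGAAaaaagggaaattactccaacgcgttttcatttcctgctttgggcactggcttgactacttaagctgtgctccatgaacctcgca
Clec5a: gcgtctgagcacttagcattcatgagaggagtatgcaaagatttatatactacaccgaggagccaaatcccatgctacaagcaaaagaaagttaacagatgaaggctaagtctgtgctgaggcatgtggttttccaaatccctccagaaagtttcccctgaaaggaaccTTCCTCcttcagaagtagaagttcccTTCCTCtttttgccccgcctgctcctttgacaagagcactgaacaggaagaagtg
Clec12a: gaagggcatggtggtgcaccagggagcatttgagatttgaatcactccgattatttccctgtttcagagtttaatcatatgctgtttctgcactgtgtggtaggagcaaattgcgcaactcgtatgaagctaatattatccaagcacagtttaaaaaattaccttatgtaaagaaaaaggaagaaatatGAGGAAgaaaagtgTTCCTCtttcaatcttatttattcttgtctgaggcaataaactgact
Clec4e: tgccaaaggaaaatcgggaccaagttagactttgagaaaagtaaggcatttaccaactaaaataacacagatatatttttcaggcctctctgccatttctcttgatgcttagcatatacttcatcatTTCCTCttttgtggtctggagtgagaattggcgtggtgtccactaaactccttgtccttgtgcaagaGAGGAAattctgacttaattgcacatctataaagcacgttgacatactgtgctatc
The match lies 90 bases upstream of the start in Clec7a, at 81 and 55 bases in Clec5a, at 61 and 47 bases in Clec12a and at 123 and 56 bases in Clec4e. RefSeq promoters were found for 9 of the 10 genes, all but Clec4n, and GAGGAA was present on either strand in 6 of them (Clec7a, Clec5a, Clec12a, Clec4e, Clec4a1 and Clec4d), against 23.1% of 27025 promoters of the same length. The other motifs searched on both strands were TGANTCA (AP-1), in 1 of the 9 and 6.85% of promoters, and TTGCNNAA (C/EBP), in 2 of the 9 and 9.55%. GGG and CC with any 5 bases between them (NF-kB) were in 1 of the 9 and 45.4% of promoters, and GAAA repeated after any 2 bases (interferon response element) was in 0 of the 9 and 3.05%. A match of letters is a description of the window and was not tested as a binding site.

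Clec7a rose in CD11c+ NMO microglia against both other groups and, to a smaller degree, in CD11c- NMO microglia against controls. It was at 83.3 and 106 CPM in the CD11c+ libraries, against 41.1, 39.7 and 33.5 CPM in the CD11c- NMO libraries and 19.2, 25.9 and 26.2 CPM in the controls. None of the 3 groups overlapped. The log2 fold change was 1.31 (SE 0.162, 95% interval 0.95 to 1.68) for CD11c+ against CD11c- NMO cells, with an adjusted p of 0.0151 (Benjamini-Hochberg) by the quasi-likelihood test of edgeR. For CD11c+ NMO against control cells it was 2.0 (SE 0.165, interval 1.63 to 2.36, adjusted p = 0.000102 by edgeR), which is 3.99-fold. For CD11c- NMO against control cells it was 0.68 (SE 0.154, interval 0.34 to 1.02, adjusted p = 0.0397 by edgeR). Comparisons that share a group of libraries are not independent of each other.

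The Clec7a difference from controls in CD11c+ cells kept its call in all 16 alternative analyses, with log2 fold changes of 1.81 to 2.27. Without CD11c+ replicate 1 it was 2.16, and the difference between the NMO subsets was then 1.48 (adjusted p = 0.0253 by edgeR). The call between the subsets was lost where those 2 groups were fitted alone (1.31, adjusted p = 0.0543 by edgeR; range over alternatives 6.99e-12 to 0.0543). The smaller difference between CD11c- NMO and control cells was less firm. It missed the threshold without CD11c- NMO replicate 1 (adjusted p = 0.122 by edgeR) or 2 (0.139) and without control replicate 1 (0.163), 2 (0.102) or 3 (0.0942), at log2 fold changes of 0.55 to 0.75. Clec7a (ENSMUSG00000079293) lies on chromosome 6 from 129461591 to 129472779 in GRCm38, on the minus strand, and GENCODE M21 gives it the biotype polymorphic pseudogene.

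**Figure D1:**
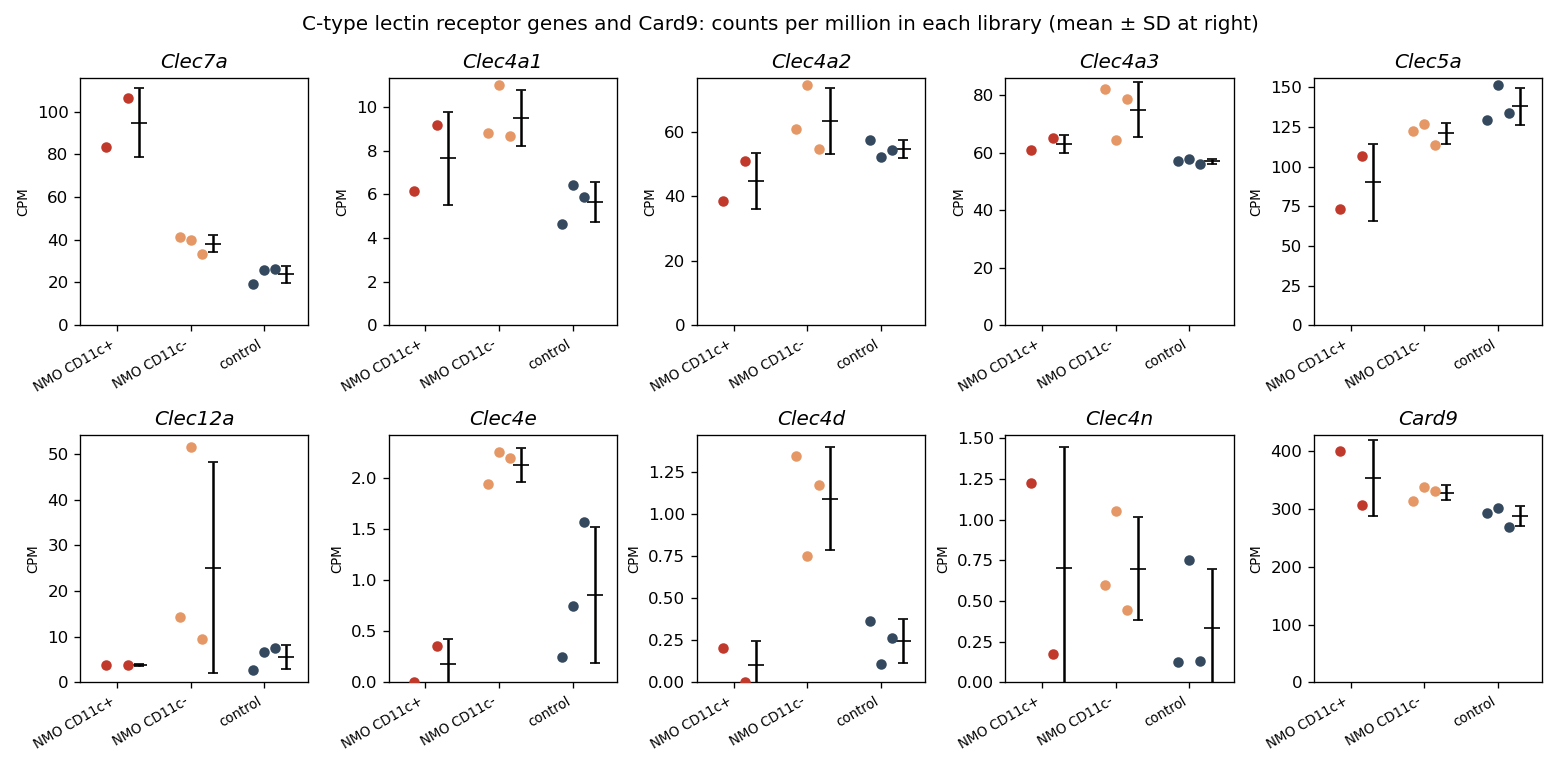
CPM (linear axes from 0) of the 9 receptor genes and Card9 in each library of CD11c+ NMO, CD11c- NMO and control microglia; coloured points are libraries and the black bar at the right of each group is the mean ± SD, cut off at 0 where it would run below. The CD11c+ libraries are the highest for Clec7a (83.3 and 106 CPM) and the lowest for Clec5a (72.9 and 107 CPM), and CD11c- NMO replicate 2 stands above the other libraries for Clec12a (51.6 CPM).

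Clec5a, which encodes MDL-1, moved the other way. It was at 72.9 and 107 CPM in the CD11c+ libraries, against 122, 127 and 113 CPM in the CD11c- NMO libraries and 129, 151 and 134 CPM in the controls. Both CD11c+ libraries lay below all 6 others, and CD11c+ replicate 1, the library that stood apart by GC content, was the lowest. Against controls the log2 fold change in CD11c+ cells was -0.62 (SE 0.157, interval -0.97 to -0.27, adjusted p = 0.0357 by edgeR). Between the NMO subsets it was -0.42 (SE 0.157, adjusted p = 0.259 by edgeR), and between CD11c- NMO and control cells -0.19 (adjusted p = 0.494 by edgeR). The call against controls held in 8 of 16 alternatives. Without CD11c+ replicate 1 the log2 fold change was -0.37 (adjusted p = 0.0939 by edgeR), and after the GC content and length of genes were corrected for in each library it was -0.31 (0.0514). It was also lost without CD11c- NMO replicate 1 (0.0623) or 3 (0.0617), without control replicate 1 (0.0764), 2 (0.116) or 3 (0.0936), and with only the 2 groups fitted (0.0977). Clec5a (ENSMUSG00000029915) lies on chromosome 6 from 40574894 to 40585821, far from the other receptor genes.

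The receptors that pair with the Fc receptor gamma chain were close to the limit of detection. Clec4e, which encodes Mincle, had 0 and 2 counts in the CD11c+ libraries, 13, 15 and 15 counts in the CD11c- NMO libraries and 2, 7 and 12 counts in the controls. The CD11c+ libraries lay below all CD11c- NMO libraries, and those lay above all controls. The ratio of summed counts, relative to library totals, was 0.0886 for CD11c+ against CD11c- NMO cells (exact 95% interval 0.0104 to 0.34, counting error only). It was 2.56 (1.49 to 4.54) for CD11c- NMO against control cells and 0.227 (0.0258 to 0.927) for CD11c+ NMO against control cells. The edgeR test called Clec4e in none of the 3 comparisons (adjusted p = 0.172 between the NMO subsets, 0.233 for CD11c- NMO and 0.225 for CD11c+ NMO against controls). Between the subsets it passed without the low-count filter (0.00632) or without CD11c+ replicate 2 (0.0313), and its adjusted p over all alternatives was 0.00632 to 0.369.

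Clec4d, which encodes MCL and lies next to Clec4e, had 1 and 0 counts in the CD11c+ libraries, 9, 5 and 8 counts in the CD11c- NMO libraries and 3, 1 and 2 counts in the controls. The CD11c- NMO libraries were above all others. The ratio of counts was 0.0866 (exact 95% interval 0.0021 to 0.535, counting error only) for CD11c+ against CD11c- NMO cells, and 4.58 (1.8 to 13.8) for CD11c- NMO against control cells. Fitted without a low-count filter, over 21199 genes, the adjusted p by edgeR was 0.112 for CD11c+ and 0.109 for CD11c- NMO cells in those 2 comparisons. Clec4n, which encodes dectin-2, had 6 and 1 counts in the CD11c+ libraries, 4, 7 and 3 counts in the CD11c- NMO libraries and 1, 7 and 1 counts in the controls, so the groups overlapped. Its ratio between the NMO subsets was 0.952 (0.325 to 2.52), that of CD11c- NMO against control cells 1.94 (0.784 to 5.09) and that of CD11c+ NMO against control cells 1.85 (0.586 to 5.59). At this depth no difference in Clec4n was detectable, and these intervals do not exclude a 2-fold change.

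Of the 2 receptors with inhibitory motifs, Clec12a varied more. It was at 3.68 and 3.88 CPM (18 and 22 counts) in the CD11c+ libraries, against 14.2, 51.6 and 9.55 CPM (95, 343 and 65 counts) in the CD11c- NMO libraries and 2.57, 6.53 and 7.45 CPM (21, 61 and 57 counts) in the controls. The CD11c- NMO libraries lay above all others, and among them replicate 2 was far above the other two libraries. The log2 fold change was -2.73 (SE 0.772, interval -4.45 to -1.01) for CD11c+ against CD11c- NMO cells and 2.18 (SE 0.594, interval 0.86 to 3.5) for CD11c- NMO against control cells. Neither passed, at adjusted p of 0.176 and 0.0758 by edgeR, with 0.696 for CD11c+ NMO against control cells. Without CD11c- NMO replicate 2 the first 2 values became -1.65 (adjusted p = 0.232 by edgeR) and 1.10 (0.229). The higher level against controls did pass without CD11c- NMO replicate 3 (2.57, 0.0351), after the GC correction (2.24, 0.047) and without the low-count filter (1.88e-11), over a range of 1.88e-11 to 0.265. The lower level in CD11c+ cells passed without that filter (8.29e-11, range 8.29e-11 to 0.416).

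Clec4a2, which encodes the inhibitory receptor DCIR, was at 38.6 and 50.9 CPM in the CD11c+ libraries, against 60.8, 74.5 and 54.7 CPM in the CD11c- NMO libraries and 57.5, 52.2 and 54.1 CPM in the controls. The CD11c+ libraries were the lowest, the second of them close to the controls. The log2 fold change between the NMO subsets was -0.50 (SE 0.16, adjusted p = 0.214 by edgeR), and that of CD11c+ NMO against control cells -0.28 (0.267). The GC correction gave 0.08 for the comparison with controls, and without CD11c+ replicate 2 that comparison passed (-0.50, adjusted p = 0.0489 by edgeR). The difference between the subsets passed without CD11c+ replicate 2 (-0.71, 0.0166) or without the low-count filter (0.0315), over a range of 0.0166 to 0.646. Of the 50-base words of its longest transcript 8.36% also occur in transcripts of other genes, most often Clec4a4 and Clec4b1, so a share of its counts is uncertain. Those neighbours had 3, 10 and 14 counts (Clec4a4) and 2, 5 and 6 counts (Clec4b1) over the CD11c+ NMO, CD11c- NMO and control groups, too few for a test.

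Clec4a1 and Clec4a3, 2 further genes of the DCIR family, were higher in every CD11c- NMO library than in any control without passing the test. Clec4a1 was at 6.13 and 9.16 CPM in the CD11c+ libraries, at 8.83, 11.0 and 8.67 CPM in the CD11c- NMO libraries and at 4.65, 6.43 and 5.88 CPM in the controls. Clec4a3 was at 60.9 and 65.2 CPM in the CD11c+ libraries, at 82.0, 64.3 and 78.8 CPM in the CD11c- NMO libraries and at 57.0, 58.0 and 56.2 CPM in the controls. For CD11c- NMO against control cells the log2 fold change was 0.74 for Clec4a1 (SE 0.218, adjusted p = 0.0942 by edgeR) and 0.39 for Clec4a3 (SE 0.106, adjusted p = 0.075 by edgeR). Both passed with only the 2 groups fitted (0.0396 for Clec4a1 and 0.028 for Clec4a3) and without CD11c+ replicate 1 (0.0397 and 0.0303) or 2 (0.0412 and 0.0295). Clec4a3 also passed without CD11c- NMO replicate 2 (0.0457). The adjusted p over the alternatives was 0.0396 to 0.308 for Clec4a1 and 0.028 to 0.236 for Clec4a3. In CD11c+ cells neither gene passed, against CD11c- NMO cells (-0.30, adjusted p = 0.545 by edgeR, and -0.25, 0.345) or against controls (0.44, 0.276, and 0.14, 0.46).

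Card9, the adaptor downstream of the activating receptors, was the most abundant of the 10 and changed little. It was at 401 and 308 CPM in the CD11c+ libraries, against 314, 339 and 332 CPM in the CD11c- NMO libraries and 293, 302 and 269.5 CPM in the controls. All NMO libraries were above all controls, but CD11c+ replicates 1 and 2 differed from each other by more than the CD11c- NMO libraries did. The log2 fold change was 0.11 between the NMO subsets (SE 0.132, adjusted p = 0.689 by edgeR), 0.19 for CD11c- NMO (0.438) and 0.30 for CD11c+ NMO cells (SE 0.132, interval 0 to 0.59, 0.169) against controls. The value between the subsets was -0.09 without CD11c+ replicate 1 and -0.08 after the GC correction, and that against controls passed without CD11c+ replicate 2 (0.47, adjusted p = 0.00866 by edgeR). Card9 (ENSMUSG00000026928) lies on chromosome 2 from 26352176 to 26360918 on the minus strand.

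**Figure D2:**
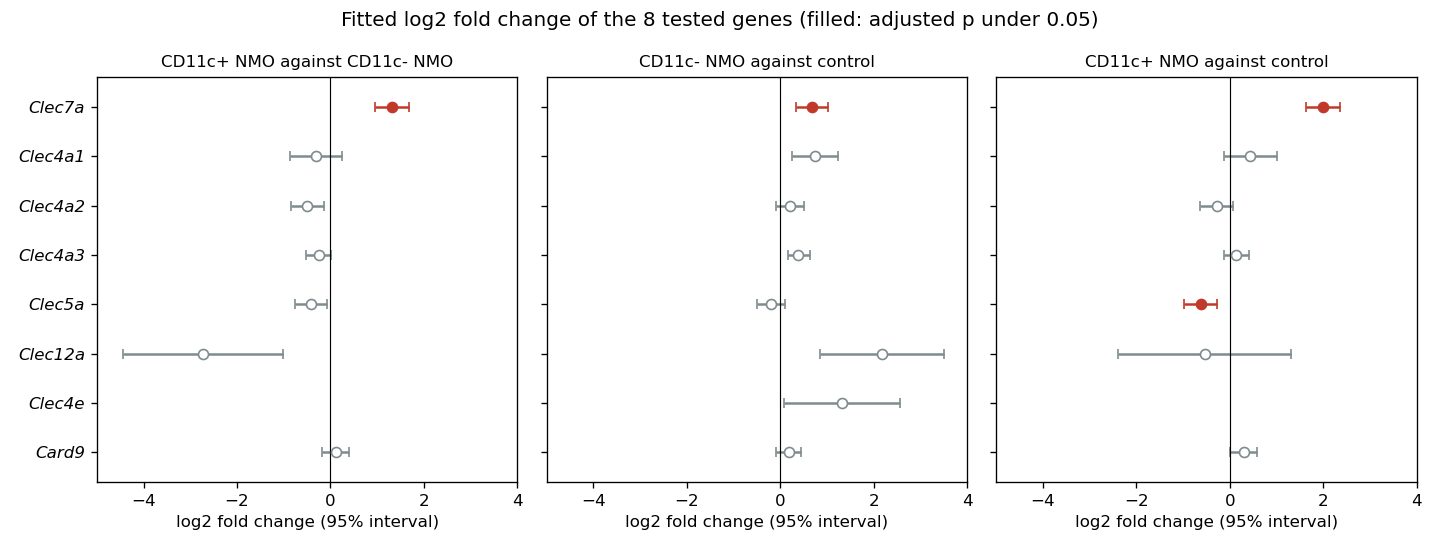
Fitted log2 fold changes (points) with 95% intervals (bars) of the 8 tested genes in the 3 comparisons, filled where the adjusted p was under 0.05. Clec4e is left out where its CD11c+ libraries hold 2 counts in all. Clec7a is filled to the right in each panel (1.31, 0.68 and 2.0) and Clec5a to the left for CD11c+ NMO against control cells (-0.62).

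Counted together, 1 of the 8 tested genes was called higher and 0 lower between the NMO subsets, where 0.1% of all 12002 tested genes were called higher and 0.183% lower. Library size alone as scaling gave 8 higher and 24 lower over all genes there, in place of 12 and 22. The groups did not overlap for 1 gene that was higher and 4 that were lower in CD11c+ cells (background 13.8% and 14.2%). Clec4e, with 0 and 2 counts in the CD11c+ libraries, is 1 of those 4. It passed the count minimum through libraries of the other groups, so its place in these counts and in the median follows in part from that filter. The share of all genes called in either direction was 0.283%. At an unadjusted p under 0.05, 5 of the 8 differed, against 15.4% of all genes. For CD11c- NMO against control cells 1 was called higher and 0 lower (background 3% and 0.717%, or 3.72% in either direction). There 6 genes were higher and 1 lower in all CD11c- NMO libraries than in all controls (background 17.6% and 16.1%), and 5 differed at an unadjusted p under 0.05 (background 18.8%). Clec4e is 1 of those 6 and 1 of those 5. It passed the count minimum mostly through the CD11c- NMO libraries, where it was high, so its place here and in the median again follows in part from that filter. For CD11c+ NMO against control cells 1 was called higher and 1 lower (background 6.85% and 3.36%, or 10.2% in either direction), with groups apart for 3 higher and 2 lower (22.2% and 21.5%) and 3 at an unadjusted p under 0.05 (28.8%). The median log2 fold change of the 8 was -0.36, 0.54 and -0.07 in these 3 comparisons, against 0.01, 0 and 0.01 over all tested genes. DESeq2 gave the same numbers of called members in all 3 comparisons. These counts cover only genes that passed the count minimum, which Clec4d and Clec4n did not.

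Levels of different genes were compared as TPM, which are counts per annotated exon length brought to the same total in each library. In CD11c+ microglia the mean level was 558 TPM for Card9, 171 TPM for Clec4a3, 129 TPM for Clec7a, 84.2 TPM for Clec5a and 55.1 TPM for Clec4a2. Clec7a was the third of the 10 in that group and the fifth in both others. In CD11c- NMO microglia the means were 549.7 TPM for Card9, 217.5 for Clec4a3, 121 for Clec5a, 83.0 for Clec4a2 and 55.6 for Clec7a. In controls they were 487 TPM for Card9, 167 for Clec4a3, 139.5 for Clec5a, 72.3 for Clec4a2 and 35.1 for Clec7a. None of these 5 genes overlapped its neighbour in the order of levels in any group. Clec4a1 came next in every group, at 17.6, 23.4 and 14.1 TPM in CD11c+ NMO, CD11c- NMO and control cells, and in CD11c- NMO cells its range overlapped that of Clec12a (17.3 TPM). Clec4d, Clec4e and Clec4n averaged at most 2.63 TPM in any group, and their order there is within the spread of the libraries.

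Of the 9 receptor genes 8 lie in 2 clusters on chromosome 6, and Clec5a lies outside both. Clec4a1, Clec4a3, Clec4a2, Clec4n, Clec4d and Clec4e follow each other within 359.9 kb, counted between their lowest coordinates, 122921848 for Clec4a1 and 123281789 for Clec4e. The lowest coordinate of Clec12a lies at -118.9 kb from that of Clec7a. Within the Clec4 cluster mean TPM were highest for Clec4a3 and Clec4a2 in all 3 groups. The genes between them and beyond (Clec4a4, Clec4b1, Clec4b2, Clec4n, Clec4d and Clec4e) stayed below the count minimum or close to it, Clec4b2 with 0, 11 and 2 counts over the CD11c+ NMO, CD11c- NMO and control groups. Close neighbours therefore differed widely in level. Clec12a and Clec7a likewise differed in direction in CD11c+ against CD11c- NMO cells, though the Clec12a difference did not pass. None of the 10 genes overlaps another coding gene in GENCODE M21.

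**Figure D3:**
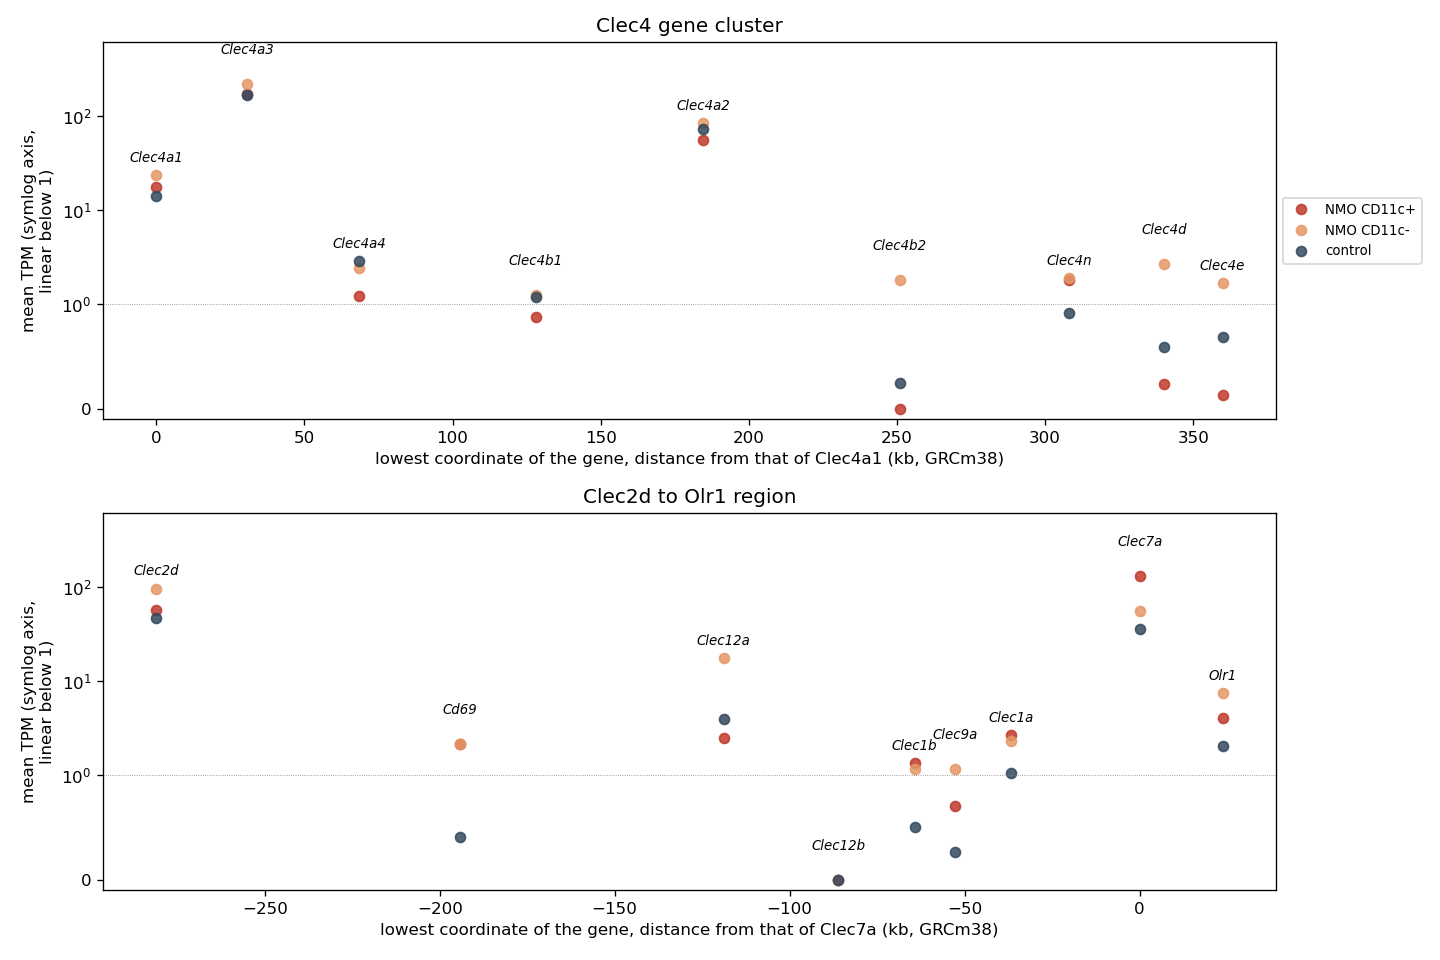
Mean TPM (symlog axis, linear below 1) of genes in the Clec4 cluster (upper panel) and in the Clec2d to Olr1 region that holds Clec12a and Clec7a (lower panel), by distance in kb along chromosome 6; points are means of CD11c+ NMO, CD11c- NMO and control libraries. Clec4a3 and Clec4a2 stand highest in the upper panel in every group, and Clec7a in CD11c+ cells (129 TPM) in the lower panel.

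Clec4d, Clec4e and Clec12a are also made by neutrophils and monocytes, and markers of these cells differed between the groups. The summed level of the neutrophil list without Csf3r, which every library held at over 1000 CPM, was 17.6 and 22.2 CPM in the CD11c+ libraries. It was 3292, 11629 and 2231 CPM in the CD11c- NMO libraries and 925, 1173 and 1914 CPM in the controls. Ly6g and Elane, neutrophil genes, had 0 counts in both CD11c+ libraries. Of the 14 neutrophil genes 11 were called lower in CD11c+ than in CD11c- NMO cells (background 0.183%) and 11 lower than in controls (background 3.36%). Ly6g, with 0 counts in the CD11c+ libraries, and Cxcr2, with 1 and 3, passed the count minimum only through the other groups, where they were higher. These numbers of lower calls therefore follow in part from that filter. For CD11c- NMO against control cells 2 (Cxcr2 and S100a8) were called higher (background 3%). With CD11c+ replicate 1 left out all of the lower calls between the NMO subsets and some of those against controls were lost. The log2 fold changes stayed close to those with it (-8.17 with and -7.83 without for S100a8 between the NMO subsets). The monocyte list summed to 66.2 and 59.7 CPM in the CD11c+ libraries, to 343, 1142 and 241 CPM in the CD11c- NMO libraries and to 95.02, 123 and 179 CPM in the controls.

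Of the monocyte genes Chil3 and Hp were called lower in CD11c+ than in CD11c- NMO cells, and Fn1, Hp, Ms4a4c and Plac8 were called higher in CD11c- NMO than in control cells. In CD11c+ NMO against control cells Fn1 and Ms4a4c were higher and Chil3 and Hp lower. The log2 fold changes of Chil3 and Hp between the NMO subsets were -9.17 and -7.77. These 2 genes may therefore have passed the count minimum only through the other groups, as did some neutrophil genes. When CD11c+ replicate 1 was left out, the calls of Chil3 and Hp were lost in both CD11c+ comparisons (adjusted p 0.0782 to 0.151 by edgeR) and those of Fn1 and Ms4a4c were kept. These marker names were chosen after their values were seen. Within the CD11c- NMO group and within the controls, Clec12a had the same order of libraries as the neutrophil and monocyte sums, highest in CD11c- NMO replicate 2 and in control replicate 3. Clec4e was nearly level over the CD11c- NMO libraries (1.95, 2.26 and 2.20 CPM) while those sums differed several fold, but over the controls (0.245, 0.75 and 1.57 CPM) it had the same order as both sums. Clec7a had its highest level in the CD11c+ libraries, where both sums were lowest. The part of neutrophil and monocyte RNA in the values of Clec4d, Clec4e, Clec12a, Clec7a or any other member was not tested.

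**Figure D4:**
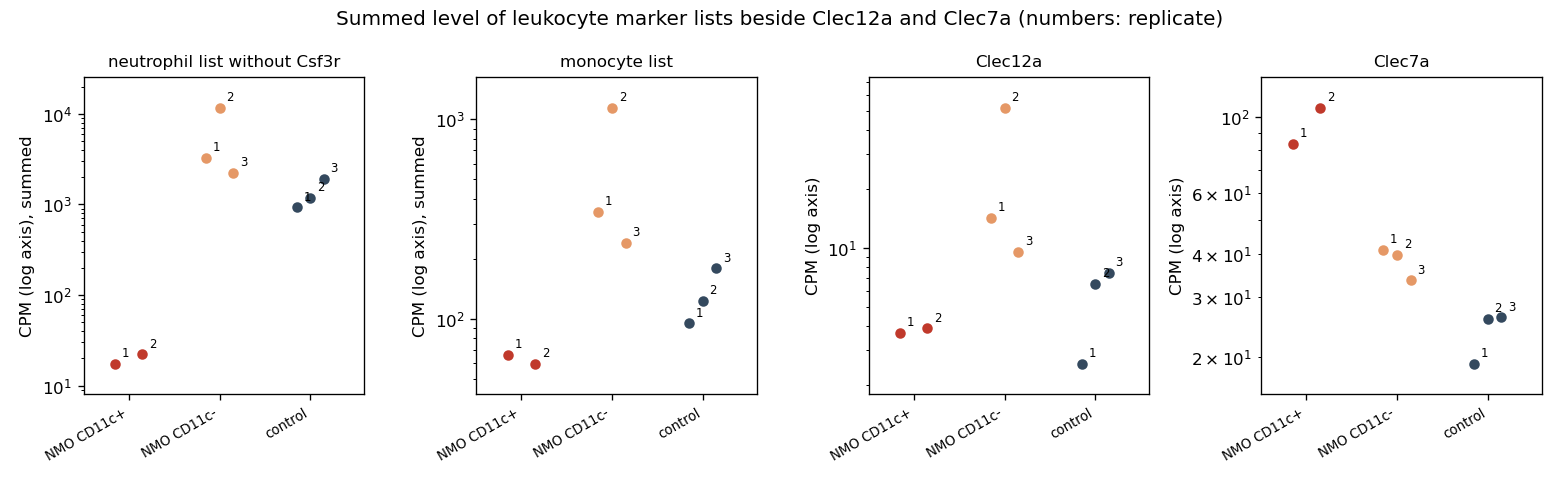
Summed CPM (log axes) of the neutrophil list without Csf3r and of the monocyte list, beside Clec12a and Clec7a, in each library of CD11c+ NMO, CD11c- NMO and control microglia; numbers are replicates. Clec12a and both sums are highest in CD11c- NMO replicate 2, and Clec7a is highest in the 2 CD11c+ libraries, where the neutrophil sum is 17.6 and 22.2 CPM.

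Other marker lists differed less. Border-associated macrophage genes summed to 70.3 to 141 CPM in CD11c+ NMO, 119 to 154 CPM in CD11c- NMO and 49.7 to 124 CPM in control libraries, with Folr2 higher in both NMO groups than in controls and Ms4a7 in CD11c- NMO cells. Of 9 tested, these were the only calls against controls (2 in CD11c- NMO and 1 in CD11c+ NMO cells, background 3% and 6.85%). Dendritic cell genes summed to 46.7 to 59.6, 45.5 to 62.2 and 32.6 to 39.2 CPM in the same groups, with Flt3 higher in both NMO groups and Kmo in CD11c+ cells than in controls. Of 6 tested, these were the only calls against controls (1 in CD11c- NMO and 2 in CD11c+ NMO cells, background 3% and 6.85%). Itgae, also on this list, was lower in all libraries of both NMO groups than in controls without passing. Its log2 fold change was -0.67 in CD11c+ NMO and -0.35 in CD11c- NMO cells (adjusted p = 0.092 and 0.363 by edgeR). The Folr2 call in CD11c+ cells was lost without CD11c+ replicate 1 (1.23, adjusted p = 0.173 by edgeR, in place of 1.53), and those of Flt3 (0.0145) and Kmo (0.0474) were kept. Lymphocyte genes reached at most 4.52 CPM in any library, and Cd3e, Cd3g and Ncr1 had 0 counts in all 8. Neural and vascular genes summed to 91.4 to 92.9, 87.9 to 91.4 and 107 to 112 CPM, with Pecam1 lower in both NMO groups, in CD11c+ cells also without that replicate (adjusted p = 0.032 by edgeR). Of the 12 microglia genes 4 (Cx3cr1, Gpr34, P2ry12 and Siglech) were called lower and 0 higher in CD11c+ NMO than in control cells (background 3.36% and 6.85%). At an unadjusted p under 0.05 there, 8 were lower and 2 (C1qa and Trem2) higher (background 28.8%), and DESeq2 called 7 lower and 1 higher. In the other 2 comparisons edgeR called 0. Between the NMO subsets 4 were lower and 1 higher at an unadjusted p under 0.05 (background 15.4%), and DESeq2 called 0. For CD11c- NMO against control cells 3 were lower and 0 higher at that threshold (background 18.8%), and DESeq2 called 2 lower. Cx3cr1 (0.0217) and P2ry12 (0.024) kept their call in CD11c+ cells without CD11c+ replicate 1, and Gpr34 (0.0855) and Siglech (0.0722) did not. The part of these cells in the receptor values was not tested.

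Most genes of the signal chain that links the receptors to NF-kB were not called in CD11c+ NMO against control cells. Of 31 genes, all tested, 5 were called higher and 0 lower in that comparison, against 6.85% and 3.36% of all genes, and 2 (Relb and Nfkb2) were still called without CD11c+ replicate 1. The 5 called with all libraries were Relb and Nfkb2, subunits of the alternative NF-kB pathway, the kinases Src and Prkcd, and Tyrobp, the adaptor of MDL-1. Between the NMO subsets 0 were called by edgeR and 0 by DESeq2 and, for CD11c- NMO against control cells, 0 by edgeR and 2 by DESeq2. At an unadjusted p under 0.05 the numbers were 5 higher and 1 lower between the subsets (15.4% of all genes in either direction), 3 higher and 0 lower for CD11c- NMO against control cells (18.8%), and 8 higher and 1 lower for CD11c+ NMO against control cells (28.8%), which is near the share of all genes. The 1 lower gene was Vav3 in both CD11c+ comparisons. It had few counts in CD11c+ cells and passed the count minimum only through the other groups, where it was higher. The medians of the 31 were 0.08, -0.01 and 0.07 in CD11c+ against CD11c- NMO, CD11c- NMO against control and CD11c+ NMO against control cells. Over all genes they were 0.01, 0 and 0.01.

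Relb was at 83.7 and 64.3 CPM in the CD11c+ libraries, against 47.1, 54.5 and 48.9 CPM in the CD11c- NMO libraries and 34.4, 37.9 and 34.0 CPM in the controls. The 3 groups did not overlap, in the same order as for Clec7a. The log2 fold change against controls was 1.06 in CD11c+ cells (SE 0.133, adjusted p = 0.00117 by edgeR), and the call held in all 16 alternatives, at 0.86 (0.0025) without CD11c+ replicate 1. In CD11c- NMO cells it was 0.50 (adjusted p = 0.052 by edgeR) and passed in 7 of 16 alternatives, over a range of 0.00401 to 0.205, among them DESeq2 (0.025) and the fits without CD11c+ replicate 1 (0.00756) or 2 (0.00715). Nfkb2 was at 99.1 and 98.0 CPM in the CD11c+ libraries, against 70.2, 72.9 and 78.8 CPM in the CD11c- NMO libraries and 70.2, 64.9 and 65.5 CPM in the controls (log2 fold change 0.56 against controls, adjusted p = 0.0068 by edgeR). Nfkb2 overlaps the gene Psd, and its call was lost after the GC correction (0.35, 0.0697) but not without CD11c+ replicate 1 (0.55, 0.0113).

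Tyrobp, which encodes DAP12, was at 779 and 602 CPM in the CD11c+ libraries, against 530.3, 557 and 542 CPM in the CD11c- NMO libraries and 482, 476 and 374 CPM in the controls. Its log2 fold change against controls was 0.64 in CD11c+ cells (SE 0.152, adjusted p = 0.0279 by edgeR), while that of its receptor partner Clec5a was -0.62. That Tyrobp call was lost without any library other than CD11c+ replicate 2 and CD11c- NMO replicate 2 (adjusted p 0.0518 to 0.105), with only the 2 groups fitted (0.0862) and after the GC correction (0.37, 0.0823). Src was at 139.9 and 92.7 CPM in the CD11c+ libraries, against 75.7 to 85.8 CPM in the CD11c- NMO libraries and 71.3 to 74.8 CPM in the controls (0.66, adjusted p = 0.0253 by edgeR). Without CD11c+ replicate 1 its value was 0.33 (0.0796), with only the 2 groups fitted the adjusted p was 0.0733, and without control replicates 1, 2 and 3 it was 0.0797, 0.0808 and 0.0947. Prkcd had a log2 fold change of 0.45 (adjusted p = 0.0392 by edgeR), lost without any library other than CD11c+ replicate 2 (0.0503 to 0.123), with only the 2 groups fitted (0.116), with library size as the only scaling (0.0614) and without the low-count filter (0.0917).

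The shared core of the pathway did not pass in any of the 3 comparisons. Fcer1g, the gamma chain of dectin-2, MCL and Mincle, had log2 fold changes of 0.25, 0.23 and 0.48 in CD11c+ against CD11c- NMO, CD11c- NMO against control and CD11c+ NMO against control cells (adjusted p 0.415, 0.382 and 0.0622 by edgeR). The last of these passed by DESeq2 (0.0154) and without CD11c+ replicate 2 (0.0115). Syk, the kinase, was at 450.2 and 342 CPM in the CD11c+ libraries, against 344 to 368 CPM in the CD11c- NMO libraries and 406 to 408 CPM in the controls. CD11c+ replicates 1 and 2 thus lay on either side of the controls. Without CD11c+ replicate 1 the Syk value between the subsets was -0.06, in place of 0.15, and without replicate 2 it was 0.33 and passed (adjusted p = 0.0361 by edgeR). Bcl10 had values of -0.06, 0.14 and 0.08 in the 3 comparisons and Malt1 values of -0.17, -0.07 and -0.24. Malt1 passed against controls without CD11c+ replicate 2 (-0.38, 0.0248), and the GC correction gave 0.23 there.

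**Figure D5:**
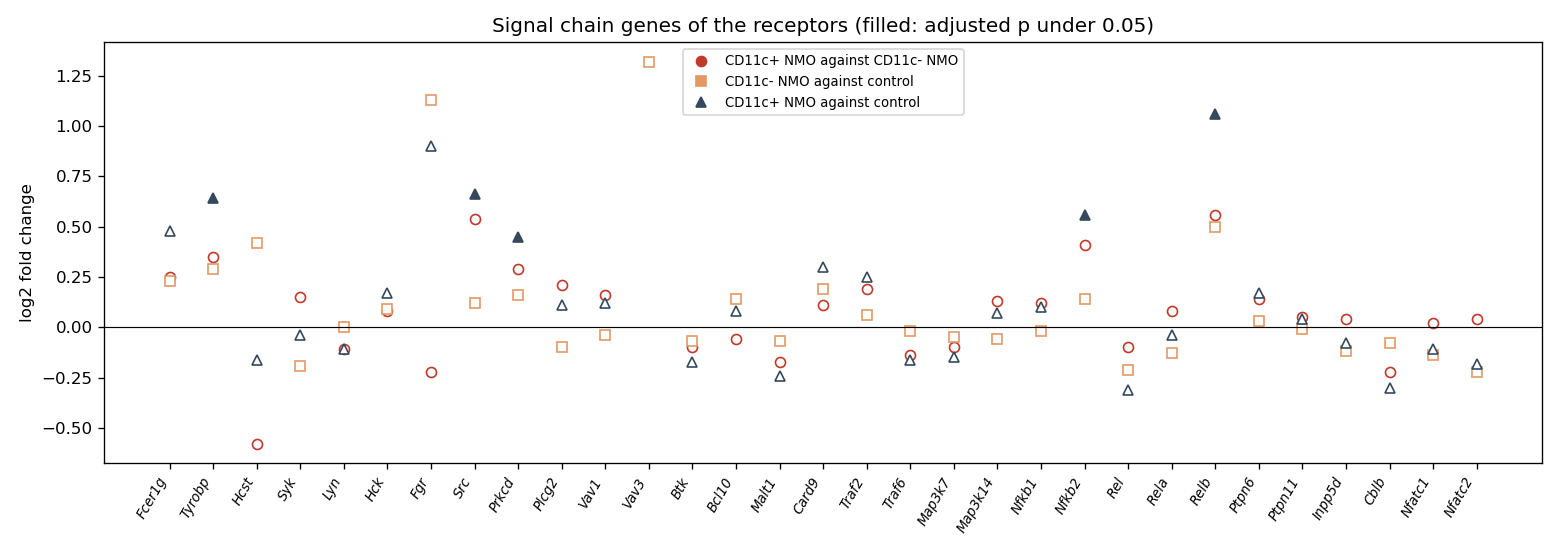
Fitted log2 fold changes (vertical axis) of the 31 signal chain genes (horizontal axis) in CD11c+ against CD11c- NMO, CD11c- NMO against control and CD11c+ NMO against control cells; filled symbols have an adjusted p under 0.05. Vav3, with 2 counts in all CD11c+ libraries, is shown only for CD11c- NMO against control cells. The 5 filled symbols are Tyrobp (0.64), Src (0.66), Prkcd (0.45), Nfkb2 (0.56) and Relb (1.06) in CD11c+ NMO against control cells.

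A list of 20 genes known to respond to these receptors or to Card9 held cytokine and chemokine genes together with Egr2, Egr3, Nlrp3 and Ptgs2. Of the 20, 13 were tested, and those called were higher in NMO (1 in CD11c- NMO and 2 in CD11c+ NMO against control cells, with backgrounds of 3% and 6.85%). Il1b, which encodes interleukin-1 beta, was at 9.19 and 21.1 CPM in the CD11c+ libraries, against 9.28, 12.9 and 11.8 CPM in the CD11c- NMO libraries and 4.77, 5.46 and 3.79 CPM in the controls. All NMO libraries were above all controls, and the NMO groups overlapped. The log2 fold change was 1.70 in CD11c+ NMO (SE 0.328, adjusted p = 0.0115 by edgeR) and 1.27 in CD11c- NMO cells (SE 0.301, 0.049) against controls. Without CD11c+ replicate 1 the first was 2.16 (0.000914), and with that library but not CD11c+ replicate 2 it kept its call at 0.96. It was lost without control replicate 3 (0.0569), and the second without any CD11c- NMO or control library (0.0726 to 0.178). Il12b, of interleukins 12 and 23, had 4 and 14 counts in the CD11c+ libraries, 8, 13 and 4 counts in the CD11c- NMO libraries and 1, 3 and 1 counts in the controls. Il12b, 1 of the 2 genes called in CD11c+ NMO cells, passed the count minimum only through NMO libraries, where it was high. Its call is therefore no support for a difference. It was called higher in CD11c+ NMO than in control cells (2.97, SE 0.783, adjusted p = 0.0405 by edgeR), a call kept without CD11c+ replicate 1 (0.0297) and lost without CD11c+ replicate 2 (1.95, 0.199), CD11c- NMO replicate 1 (0.0653) or any control (0.0811 to 0.122).

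Between the NMO subsets 0 of the 13 were called by edgeR, 0 by DESeq2 and 0 at an unadjusted p under 0.05. The medians of the 13 were 0.43, -0.22 and 0.39 in CD11c+ against CD11c- NMO, CD11c- NMO against control and CD11c+ NMO against control cells. The CD11c+ libraries stood apart from each other on this list, which summed to 599 and 2494 CPM there, against 659 to 1112 CPM in the CD11c- NMO libraries and 804 to 1010 CPM in the controls. CD11c+ replicate 2 was thus far above the other libraries. Csf2 and Cxcl1 had 0 counts in all 8 libraries.

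Of 42 other genes with a C-type lectin domain 15 had enough counts for a test. Of these, 3 were called higher in CD11c- NMO than in control cells (background 3%) and 4 higher and 1 lower in CD11c+ NMO than in control cells (background 6.85% and 3.36%). Those last numbers were 4 and 0 when CD11c+ replicate 1 was left out, with 3 of the 5 calls kept. Between the NMO subsets 0 were called by edgeR and 1 lower by DESeq2, with 2 higher and 1 lower at an unadjusted p under 0.05 (background 15.4% in either direction). Their medians were 0.01 between the subsets, 1.13 for CD11c- NMO and 1.01 for CD11c+ NMO cells against controls. Cd69, Clec2i and Klrb1b, all among the genes called higher, passed the count minimum only through NMO libraries, where they were high. Their place in these counts and medians follows in part from that filter. Cd72, an inhibitory receptor best known from B cells, was at 109.9 and 89.8 CPM in the CD11c+ libraries, against 49.4, 75.3 and 66.3 CPM in the CD11c- NMO libraries and 11.0, 16.4 and 13.3 CPM in the controls. The 3 groups were apart, in the order seen for Clec7a. Against controls its log2 fold change was 2.87 in CD11c+ NMO (SE 0.204, adjusted p = 4.21e-05 by edgeR) and 2.22 in CD11c- NMO cells (SE 0.191, 0.000205), and both calls held in all 16 alternatives. The CD11c+ value was 2.72 without CD11c+ replicate 1. Cd72 overlaps the gene Tesk1.

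Cd69, an early activation marker of leukocytes, was at 2.45 and 5.29 CPM in the CD11c+ libraries, at 4.19, 4.22 and 2.50 CPM in the CD11c- NMO libraries and at 0.536 to 0.856 CPM in the controls. With 7, 5 and 5 counts in the controls, Cd69 passed the count minimum only through the NMO groups, where it was high. Its calls are therefore no support for a difference. It was higher than in controls in both NMO groups (2.50, adjusted p = 0.00999, and 2.39, 0.0141, by edgeR for CD11c+ and CD11c- NMO cells), at 2.93 in CD11c+ cells without CD11c+ replicate 1 (0.00528). The CD11c- NMO call was lost without CD11c- NMO replicate 1 (0.0539) or 2 (0.057) or any control (0.0552 to 0.0809). Cd93, a receptor of myeloid and endothelial cells, was higher in CD11c- NMO cells (1.97, 0.0275) and its highest library was again CD11c- NMO replicate 2 (11.1 CPM). That call was lost without this replicate (1.55, 0.087) or any control (0.0831 to 0.119).

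The remaining calls rested on few counts or small differences. With 3, 9 and 5 counts in the controls, Clec2i passed the count minimum only through NMO libraries, where it was high. Its call is therefore no support for a difference. Clec2i had a log2 fold change of 2.35 in CD11c+ NMO against control cells (adjusted p = 0.0391 by edgeR), which was 3.03 without CD11c+ replicate 1 (0.00483) and 0.85 without CD11c+ replicate 2 (0.377). It was also lost without CD11c- NMO replicate 1 (0.0627) or 3 (0.0633) or any control (0.0773 to 0.12), and the gene overlaps BC035044. Klrb1b, at 11 counts in each CD11c+ library and 2 to 8 in the others, passed the count minimum only through the group where it was high, so its call is no support for a difference. It had a value of 2.10 (0.0491), lost without any library other than control replicate 2 (0.0526 to 0.156), with only the 2 groups fitted (0.0909) and with library size as the only scaling (0.0525), and it overlaps Gm44511. Cd302 was lower in CD11c+ NMO than in control cells (-0.44, 0.0418), a call lost without any library other than CD11c+ replicate 2 (0.0568 to 0.134), by DESeq2 (0.0528), with only the 2 groups fitted (0.109) and after the GC correction (0.065).

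The genes whose levels most resembled each receptor were found by Pearson correlation of log2 CPM over the 8 libraries, among tested genes with a mean of at least 5 CPM. These values follow differences between the 3 groups as well as single libraries that stand apart, and they carry no test. Card9 was highest in CD11c+ replicate 1 (401 CPM), the library that stood apart by GC content, and Clec12a in CD11c- NMO replicate 2 (51.6 CPM). For Clec7a they were Ctla2b (r = 0.989), Pgap2, Slamf8 (0.981), Siglecf and Iqce. For Clec12a they were Ntng2 (0.988), Gsn, Rab3d, Antxr2 and Pygl, and for Clec5a Zfp715 (0.98), Phf6, Deptor, Spcs3 and Mettl8. For Card9 they were Gpsm3 (0.987), Naxe, Gpc2, Trem2 (0.981) and Cdk16. Those of Clec4a1 were Tmem164 (0.99), Igsf6, Zscan29, Msr1 and Palb2, and those of Clec4e Fosl2 (0.979), Zkscan4, Pigm, G2e3 and Arl2bp. Clec4a2 had Fam107b (0.98), Abhd5, Nedd9, Tardbp and Cpne3, and Clec4a3 had Pfkfb2 (0.975), Tlr6, 1190002N15Rik, Psat1 and Agbl3. Among the members themselves Clec7a and Clec5a had r = -0.74 and Clec12a and Clec4e r = 0.79, again over the same 8 libraries.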

How the data were processed

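Counts per gene were taken as the authors deposited them, for 41388 identifiers in each of 8 libraries. STAR, HTSeq 0.5.4, edgeR 3.12.0 and the build GRCm38 are named in the submitters' processing notes. The annotation release and strand setting of the counting are not given there. GENCODE M21 supplied symbols (for 40340 identifiers), positions and exon lengths, and RefSeq (GRCm38.p6) the promoters.

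Genes passing filterByExpr with a minimum count of 10 (12002) were scaled by TMM and fitted in R 4.3.3 with edgeR 4.0.16 and limma 3.58.1. All 8 libraries entered 1 quasi-likelihood fit (5 residual degrees of freedom), tested as contrasts of group means with Benjamini-Hochberg adjustment over the tested genes and a threshold of 0.05. CPM use TMM-scaled totals of tested genes. Ratios of counts carry exact conditional 95% intervals that cover counting error only. The pipeline was tested on simulated data.

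Alternatives were RLE, upper quartile or no scaling factor, no low-count filter or a minimum count of 30, DESeq2 1.42.0, only the groups compared, a correction of each library for GC content and gene length, and each library left out in turn. Where 1 library is left of the CD11c+ group, it is assumed to vary like the other groups. No batch is labelled.

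The members and gene lists (signal chain, Card9-induced genes, other C-type lectin genes and the cell type markers) were chosen with earlier results of these data known. Named genes are the 10 members, called genes of the first 3 lists (at most 8 per list), their signalling partners and nearest family genes, Itgax, Itgam, Ptprc, and the 5 genes most like each member. The values of a monocyte marker gene are not reported here.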

Additional observations from a re-analysis of the deposited data

How the results depend on the processing

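No paired analysis was possible because the labels number no replicates and link no CD11c+ and CD11c- library of the same mouse. The cause of each shift below was not tested. For CD11c+ against CD11c- NMO cells the 12 higher and 22 lower genes became 264 and 443 without the low-count filter, 94 and 164 by DESeq2, 2 and 3 with only the groups compared and 36 and 43 after the GC and length correction. Leaving out a library gave 3 to 1435 higher and 0 to 1581 lower, the highest without CD11c+ replicate 2. Of the 10 members, 0 were higher with only the groups compared and 3 lower without the filter, and 0 to 3 lower with a library left out. Of the signal chain genes 2 were higher and 1 lower without the filter, and 0 to 6 higher and 0 to 3 lower with a library left out. The GC correction turned Clec4a3 to 0, Card9 to -0.08 and Malt1 to 0.25. With a library left out Card9 ranged over -0.09 to 0.29, Syk over -0.06 to 0.33 and Bcl10 over -0.17 to 0.05, with the sign turned without CD11c+ replicate 1 and, for Bcl10, also without CD11c- NMO replicate 2 (0.01).

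For CD11c- NMO against control cells the 360 higher and 86 lower genes became 841 and 316 without the filter, 544 and 133 by DESeq2, 803 and 418 with only the groups compared and 720 and 229 after the GC correction. Leaving out a library gave 123 to 788 higher and 18 to 405 lower. Members higher numbered 2 without the filter, 3 with only the groups compared, 2 after the GC correction and 0 to 3 with a library left out. Signal chain genes higher numbered 2 without the filter, 1 at a minimum count of 30, 2 by DESeq2, 2 with only the groups compared, 2 after the GC correction and 0 to 2 with a library left out.

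For CD11c+ NMO against control cells the 822 higher and 403 lower genes became 466 and 161 with only the groups compared, and the lower ones 1083 without the filter and 627 by DESeq2. Leaving out a library gave 385 to 2019 higher and 102 to 2058 lower. Members lower numbered 0 with only the groups compared and 0 after the GC correction, and 0 to 2 with a library left out, when 1 to 2 were higher. Signal chain genes higher numbered 3 with only the groups compared and 3 after the GC correction, and 2 to 9, with 0 to 5 lower, when a library was left out. The GC correction turned Clec4a2 to 0.08 and Malt1 to 0.23, and with a library left out Syk ranged over -0.25 to 0.14 and Bcl10 over -0.04 to 0.19, with the sign turned without CD11c+ replicate 2. Few counts limit Clec4d, Clec4e and Clec4n most.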
